A study of Mus musculus with 2 samples.

Results

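The Bmp4, Rspo2 and Il34 high cells were a range of the reticular cells of mouse femoral bone marrow, chosen by the summed level of the transcripts of 3 secreted signals, Bmp4, Rspo2 and Il34. They numbered 390 cells, 135 in Mouse #1 and 255 in Mouse #2, of 4386 reticular cells and 7332 cells in all. They made up 8.84% and 8.92% of the reticular cells and 4.91% and 5.57% of all cells of the respective mouse. A barcode counted as a cell from 1000 detected genes upward, if no more than 15% of its UMIs were mitochondrial, where a UMI tags 1 captured transcript. Reticular cells had at least 10 UMIs of Adipoq, Lpl and Hp together per 10000 UMIs, more than of Alpl, Wif1, Kcnk2 and Spp1 together, and at most 1 UMI each of Ptprc and Cdh5. The score was the sum of Bmp4, Rspo2 and Il34 UMIs per 10000. Members reached the 80th percentile of the score among reticular cells of their library. Their immediate early level, Fos, Jun and Egr1 UMIs together per 10000, also lay between the 25th and 75th percentiles. The other 1802 reticular cells inside that immediate early window, 628 and 1174, were the comparison cells.

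Both mice carried Cxcl12(GFP/+), which marks cells transcribing Cxcl12 with eGFP, together with Cxcl12-iCreER and R26R(tdTomato/+). Cxcl12-iCreER is a bacterial artificial chromosome transgene whose recombinase acts after tamoxifen, and R26R(tdTomato) is then transcribed permanently in that cell and its descendants. Tamoxifen was given at postnatal day 21 and GFP+ cells were sorted from femurs at postnatal day 28, with about 18000 cells loaded per library. The labels name GFP+ cells as the cell type, whereas the extraction field names tdTomato+ cells, and the libraries were read as GFP+ sorts. There was 1 group of 2 mice and no untreated mouse, so every comparison was between cells of the same 2 animals.

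Reticular cells are the stromal cells of the marrow cavity that secrete Cxcl12 and Kit ligand and hold blood progenitors and B cell precursors in place. BMP4 binds type I and type II receptors that phosphorylate Smads, and secreted antagonists such as Chrdl1, Grem1 and Fst bind BMPs or related ligands before they reach the receptor. R-spondin 2 acts through Lgr receptors and keeps Frizzled receptors on the cell surface, which raises the response to Wnt. IL-34 shares the receptor Csf1r with Csf1 and supports macrophages. Slc26a7 is an anion transporter and Prelp a small leucine-rich proteoglycan of basement membranes.

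On GRCm38 all 6 of these genes lie on the minus strand: Bmp4 at chr14:46383520-46390669, Rspo2 at chr15:43020794-43170826, Il34 at chr8:110741829-110805924, Slc26a7 at chr4:14502430-14621805, Prelp at chr1:133910304-133921414 and Chrdl1 at chrX:143285674-143394262. The 250 bases before the start of Bmp4 and Prelp are printed because Bmp4 supplied most of the score, because Prelp and Bmp4 parted when cells were chosen on 1 gene, and because the genes of the EBF and forkhead factors Ebf3 and Foxc1 were higher in the members. They are RefSeq sequences of build GRCm38.p6 on the minus strand, 5′ to 3′, at chr14:46390670-46390919 for Bmp4 and chr1:133921402-133921651 for Prelp. The gene spans above are those of GENCODE, and the RefSeq start of Prelp lies slightly inside its span, so the first bases upstream of that start fall within the GENCODE gene. Capitals mark matches, on either strand, to CCCNNGGG for EBF, TAAACA for forkhead factors and GGGCGG for the GC box.
Bmp4: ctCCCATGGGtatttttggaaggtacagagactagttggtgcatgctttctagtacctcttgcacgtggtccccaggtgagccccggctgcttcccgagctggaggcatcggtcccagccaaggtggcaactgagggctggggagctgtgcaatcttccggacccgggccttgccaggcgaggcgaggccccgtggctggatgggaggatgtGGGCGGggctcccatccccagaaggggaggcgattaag
Prelp: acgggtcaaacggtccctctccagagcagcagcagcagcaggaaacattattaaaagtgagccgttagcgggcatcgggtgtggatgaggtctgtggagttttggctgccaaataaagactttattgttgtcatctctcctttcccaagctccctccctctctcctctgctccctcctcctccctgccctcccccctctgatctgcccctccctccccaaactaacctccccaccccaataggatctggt
The Bmp4 stretch held 1 EBF match, starting 248 bases before the start, and 1 GC box at 38 bases, and the Prelp stretch held none of the 3 motifs. Neither stretch held the forkhead letters. Among 32851 promoter stretches of this length, 11.8% held the EBF letters, 12% the forkhead letters and 32.7% the GC box, so these matches describe the sequences and no binding was measured. Stretches for Rspo2, Il34, Slc26a7 and Chrdl1 were not used here.

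The libraries held 54940400 and 88790688 UMIs and gave 2750 and 4582 cells with medians of 12966.5 and 12190 UMIs. The 2 libraries had 7 cell barcodes in common, none of them in members of both. Members and comparison cells were of like depth, with medians of 12719 and 13112.5 UMIs in Mouse #1 and of 12262 and 11717.5 in Mouse #2. Some cells that met the rule carried blood transcripts: over 20 UMIs per 10000 of 9 blood markers were found in 9 and 3 members (6.67% and 1.18%) and in 31 and 43 comparison cells (4.94% and 3.66%). Likewise 9 and 3 members (6.67% and 1.18%) had no UMI of Adipoq, the adiponectin gene that marks reticular cells. The same held for 65 and 104 comparison cells (10.4% and 8.86%). Levels are given as CPM, counts scaled to a fixed total of all UMIs of the class. The 9 blood markers summed to 838 and 494 CPM in members and to 5822 and 6482 CPM in comparison cells. Without both kinds of cell, 118 and 249 members and 545 and 1037 comparison cells remained, and the blood markers summed to 504 and 386 against 472 and 374 CPM. Each count was therefore repeated in these Adipoq-positive cells without blood markers, called the stricter cells hereafter, a choice made after seeing the data.

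The score had no gap at its threshold. The thresholds were 7.44 and 7.16 UMIs per 10000, the lowest member scores 7.45 and 7.16, and the highest comparison scores 7.38 and 7.14. Member scores had medians of 9.98 and 10.0 and reached 48.1 and 27.2, whereas comparison cells had medians of 2.46 and 2.17 and 105 and 235 of them had no UMI of any score gene. Within 1 UMI per 10000 of the threshold lay 33 and 54 members and 33 and 59 comparison cells. The immediate early window ran from 2.79 to 69.4 UMIs per 10000 in Mouse #1 and from 3.71 to 60.3 in Mouse #2. The members were thus the upper range of a score without a gap at the cut. The threshold was a percentile of these same cells, so it cannot show whether the members form a separate type. That was not tested.

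Bmp4 dominated the score, and most members did not carry all 3 transcripts at the same strength. It supplied 67.7% and 63.2% of the score UMIs of members, Rspo2 17.4% and 15.5%, and Il34 14.9% and 21.3%. Bmp4 had the most UMIs of the 3 genes in 106 and 181 members, Rspo2 in 8 and 14 and Il34 in 11 and 47. All 3 transcripts were seen in 62 and 143 members, 2 of them in 54 and 90, and 1 alone in 19 and 22. These numbers follow depth: members with 1 transcript had median depths of 7502 and 8748 UMIs, and members with all 3 had 14549 and 15247.

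The levels of the 3 score genes chose the members and are given as a description. Bmp4 stood at 735 CPM in members of Mouse #1 (95% Poisson interval 696 to 776) and 753 CPM in Mouse #2 (725 to 782), against 135 and 97.6 CPM in comparison cells. Rspo2 stood at 189 and 185 CPM against 49.4 and 54.3, and Il34 at 161 and 254 CPM against 85.3 and 99.4. Il34 had the smallest ratio of members to comparison cells of the 3, and its level in members differed most between the mice. Preosteoblast-class cells, in which Alpl, Wif1, Kcnk2 and Spp1 outweighed the reticular genes, had 30.4 and 28.9 CPM of Bmp4, 23.6 and 17.9 of Rspo2, and 3.41 and 4.98 of Il34. Hematopoietic cells had 1.53 and 1.58 CPM of Bmp4 and no UMI of Il34, where a count of 0 allows up to 0.765 and 0.946 CPM. Intervals cover counting error only.

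With each cell thinned at random to 4000 UMIs, 91.3% and 88.5% of members had a Bmp4 UMI (97.0% and 94.1% unthinned), 45.7% and 44.9% an Rspo2 UMI and 45.7% and 50.6% an Il34 UMI. Of the comparison cells 38.2% and 26.6% had Bmp4, 19.0% and 15.4% had Rspo2, and 26.6% and 32.6% had Il34. Thinning left out 8 and 12 members and 34 and 58 comparison cells. In hematopoietic cells, with median depths of 10859 and 7936 UMIs, 0.543% and 1.28% had a Bmp4 UMI. Barcodes of 1 to 100 UMIs, which sample free RNA, held 112 and 137 CPM of Bmp4.

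The 3 other markers of these cells were not read by the rule, but they had been picked with these data known, so they too are described without a test. Slc26a7 stood at 117 CPM in members of Mouse #1 (95% Poisson interval 102 to 134) and 94.7 in Mouse #2 (84.8 to 105), against 59.1 and 39.3 CPM in comparison cells. Prelp stood at 383 and 624 CPM against 305 and 417. Chrdl1 stood at 782 and 844 CPM against 679 and 545. All 3 were higher in members of both mice, with Slc26a7 showing the largest ratio and Chrdl1 and Prelp differing far less. Over 5 equal bins of the score in the stricter cells, Chrdl1 did not rise past the second bin in Mouse #1. It stood there at 591 CPM in the lowest bin, 868 in the second and 792 in the highest. In Mouse #2 it went from 468 in the lowest to 850 in the highest. In preosteoblast-class cells Chrdl1 was at 9.0 and 14.3 CPM, Prelp at 11.01 and 27.2 and Slc26a7 at 5.43 and 6.12.

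**Figure D1:**
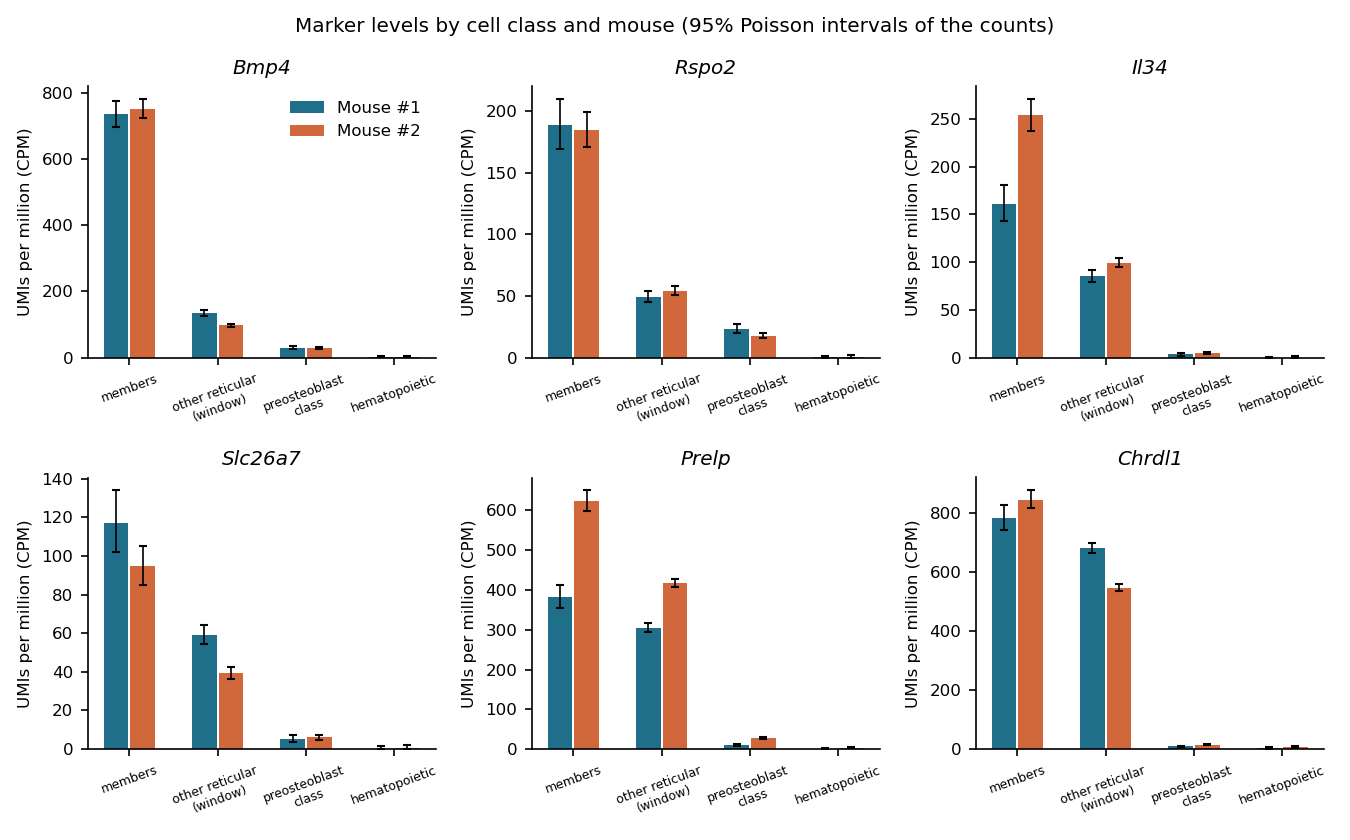
Levels of the 6 marker genes in CPM (y axis, linear from 0) in 4 classes of cells (x axis), with 1 bar per mouse and bars of error giving 95% Poisson intervals of the counts. Bmp4 falls from 735 and 753 in members to 135 and 97.6 in comparison cells, whereas Chrdl1 falls from 782 and 844 to 679 and 545 and stands at 9.0 and 14.3 in preosteoblast-class cells.

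How each score gene stood in cells chosen on the other two is also a description without a test, since the 3 genes were grouped with these data known. Cells of the window at or above the same percentile for Rspo2 and Il34 together had 328 and 385 TMM-scaled CPM of Bmp4, against 216 and 186 in the other cells (log2 fold change 0.84 ± 0.092 SE). Cells chosen on Bmp4 and Il34 had 128 and 145 CPM of Rspo2 against 62.2 and 64.1 (1.12 ± 0.084). Cells chosen on Bmp4 and Rspo2 had 86.1 and 159 CPM of Il34 against 102 and 124 (0.12 ± 0.12), lower in Mouse #1 (-0.25) and higher in Mouse #2 (0.36). Bmp4 and Rspo2 were thus higher in the chosen cells of both mice, and Il34 in those of 1 mouse.

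The cells were next chosen on 1 gene. Cells at or above the 80th percentile of Bmp4 alone had 2.16 and 2.59 times the Rspo2 of the other window cells and 1.87 and 2.50 times the Slc26a7, but 0.925 and 1.37 times the Il34. Cells chosen on Rspo2 alone had 2.08 and 2.56 times the Bmp4 and 1.49 and 1.98 times the Slc26a7, with Il34 at 0.869 and 1.24 and Prelp at 0.910 and 1.09 times. Cells chosen on Il34 alone had 1.56 and 1.57 times the Prelp and 1.36 and 1.39 times the Chrdl1, but 1.06 and 1.27 times the Bmp4 and 0.972 and 1.13 times the Rspo2. Bmp4, Rspo2 and Slc26a7 were thus raised together in both mice, whereas Il34 was not raised in both mice by the choice on either of the other score genes and Prelp was highest in the cells chosen on Il34.

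**Figure D2:**
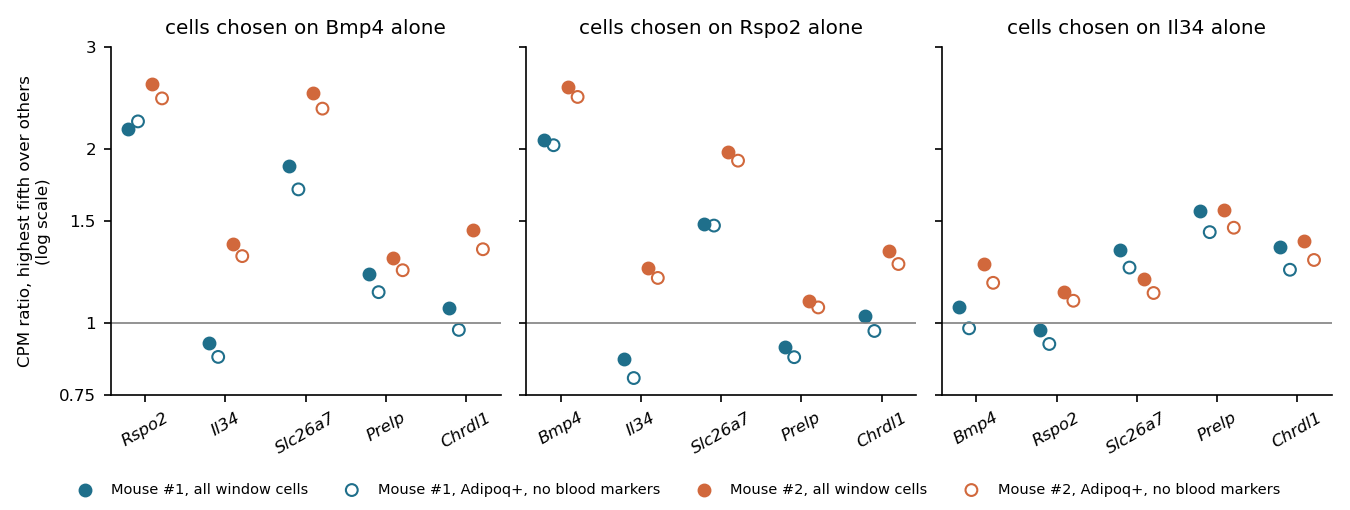
Ratio of CPM in the cells chosen on 1 score gene over the other window cells (y axis, log scale) for the remaining markers (x axis), with 1 panel per choosing gene, symbols by mouse, and the stricter cells drawn apart. Bmp4 and Rspo2 go with each other at 2.08 to 2.59 times, with Il34 between 0.869 and 1.37, while the choice on Il34 goes with Prelp at 1.56 and 1.57.

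To separate the choice from the measurement, the UMIs of each cell were divided at random into 2 sets, the cells were chosen with the first and read with the second. The chosen 131 and 249 cells then had 643 and 673 CPM of Bmp4 against 154 and 118 in the rest, a ratio of 4.18 and 5.73 where the choosing set gave 5.80 and 7.67. For Rspo2 the ratios were 2.92 and 2.59 in place of 4.14 and 3.86, and for Il34 1.44 and 1.94 in place of 2.14 and 3.09. All 3 score genes were thus nearer to the comparison level in the set that had not chosen the cells, and all 3 stayed above it in both mice. Both sets came from the same cells, chosen on these same 3 genes. The division therefore takes out counting noise only and does not show that the 3 genes go together. Slc26a7, which the choice never read, gave 1.89 and 2.34 in the second set.

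The shares of reticular cells at or above the score threshold, by immediate early level, were ordered differently in the 2 mice. Below, inside and above the window it was 22%, 17.7% and 22.8% in Mouse #1 and 14.0%, 17.8% and 30.3% in Mouse #2. The 95% Wilson intervals above the window, 18.9 to 27.2% and 27.1 to 33.8%, overlapped slightly. No test across mice was run on these shares.

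Inside the window, members differed from the comparison cells in a broad set of genes, with Foxc1, Id4, Rspo3 and 9 of 17 niche factors higher, and with 14 of 15 cell cycle genes, 15 of 20 immediate early genes, 11 of 20 collagens and 10 of 21 osteoblast genes lower. Counts were summed per mouse and class and compared with the mouse as a block. Of 11793 genes, 412 were higher (3.49%) and 922 lower (7.82%), 11.3% in all, at an edgeR adjusted p under 0.05. The stricter cells gave 366 higher (3.19%) and 778 lower genes (6.78%), 9.98% of 11467, of which 323 and 654 were among the first. In all window cells without the block, 16 higher (0.136%) and 115 lower genes (0.975%) were called, 1.11% in all. Foxc1, Ptx3 and Sfrp2 were among the higher ones. The stricter cells kept few calls in these other fits: without the block 2 higher and 10 lower of the 11467 genes were called. DESeq2 called 29 higher and 110 lower genes there. The gene lists below leave out the score genes, the rule's other genes and the 3 markers, and the median log2 fold change over all tested genes was 0.00053. Members and lists were chosen with earlier results of these data known, so the list counts are not independent of that choice.

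Among BMP ligands and their relatives, 10 of 14 genes could be tested, 2 were higher and 2 lower, with a median log2 fold change of -0.06. DESeq2 called 0 of the 10. Without the block edgeR also called 0, with 4 at an unadjusted p under 0.05. Bmp2, a close relative of Bmp4, was at 50.9 and 50.5 TMM-scaled CPM in members against 39.8 and 33.3 (log2 fold change 0.50 ± 0.12, adjusted p = 0.00759). Tgfb2 was at 39.0 and 82.8 against 31.1 and 64.9 (0.34 ± 0.10, adjusted p = 0.0322), so its mice differed more than its classes. Tgfb1 was lower, with a log2 fold change of -0.62, and so was Inhba, a subunit of activin, with -1.11 at 6.49 and 3.31 against 12.5 and 8.02 CPM. Inhba lost its call in the stricter cells. None of 12 receptors and Smads was called by edgeR or DESeq2, with 0 at an unadjusted edgeR p under 0.05.

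Of 12 tested BMP antagonists, 4 were higher and 2 lower (median 0.22). Fst, which binds activins and BMPs, stood at 531 and 462 against 406 and 335 CPM (log2 fold change 0.43 ± 0.078, adjusted p = 0.000996), and Crim1, which tethers BMPs, at 201 and 176 against 143 and 124 (0.50 ± 0.082, adjusted p = 0.000377). Fstl1 rose by 0.22 and Grem1 by 0.30, and Grem1 was not called in the stricter cells. The lower genes, Nog and Fstl3, were each under 6 CPM in members and comparison cells. Nog was not called in the stricter cells, where Fstl3 was too low to be tested. Of 11 BMP target genes, Id4 and Id3 were higher and Id2 lower (median 0.09). Id4, an inhibitor of bHLH transcription factors, was at 376 and 458 against 197 and 266 CPM (0.85 ± 0.082, adjusted p = 6.19e-07). Id2 went the other way, with 51.4 and 38.6 against 90.3 and 66.5 CPM (-0.80 ± 0.10), so the Id genes did not move as 1 group.

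Among Wnt pathway genes other than Rspo2, single R-spondins and receptors and 4 of 6 antagonists were called. Rspo3, the other R-spondin at a high level here, was at 582 and 493 against 382 and 289 CPM (log2 fold change 0.69 ± 0.080, adjusted p = 7.91e-06), and it was the 1 called gene of 4 tested R-spondins and receptors. Fzd5, a Wnt receptor, was the 1 called gene of 18 Wnt ligands and receptors, at 141 and 167 against 100 and 105 CPM (0.60 ± 0.085). Of 6 Wnt antagonists, Sfrp2 (0.64) and Sfrp1 (0.28) were higher and Dkk3 (-0.52) and Sfrp4 (-0.31) lower, and Sfrp1 and Sfrp4 lost their calls in the stricter cells. None of 8 Wnt response genes was called by edgeR or DESeq2 (median 0.27), with 3 at an unadjusted edgeR p under 0.05, and 1 was lower in the stricter cells.

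Regulators of macrophages and osteoclasts went in both directions, with 3 of 11 higher and 4 lower (median -0.22), and 1 and 4 in the stricter cells. In all window cells DESeq2 called 0 of the 11. Without the block edgeR also called 0, with 4 at an unadjusted p under 0.05. DESeq2 called 1 in the stricter cells. Csf1, the other ligand of Csf1r, was at 542 and 548 against 470 and 413 CPM (log2 fold change 0.31 ± 0.080, adjusted p = 0.0148). Tnfsf11, which encodes RANKL, the osteoclast differentiation signal, was lower at 451 and 548 against 513 and 809 CPM (-0.38 ± 0.086, adjusted p = 0.00557), with levels that overlapped between mice. Ccl2, a monocyte chemokine, was at 450 and 700 against 507 and 1162 CPM (-0.46), and Il6 and Cx3cl1 were lower by -0.93 and -0.39. Tnfrsf11b, the RANKL decoy receptor, was higher by 0.96 but at only 14.6 and 5.24 CPM, and it and Il1rn were not called in the stricter cells.

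Of 17 niche factors, 9 were higher and 3 lower (median 0.24). DESeq2 called 4 higher and 2 lower, and edgeR without the block called 0, with 10 at an unadjusted p under 0.05. Cxcl12, the chemokine that retains blood progenitors, was at 9264 and 9464 against 7878 and 7891 CPM (log2 fold change 0.25 ± 0.035, adjusted p = 6.72e-05). Il15, Vegfc, Il7 and Angpt1 rose by 0.66, 0.59, 0.52 and 0.46. Of these Il7, a growth factor of B cell precursors, was at 179 and 187 against 121 and 133 CPM (adjusted p = 0.000241). Fgf7 rose by 0.43. Ptn, which encodes the growth factor pleiotrophin, was the lowest, at 306 and 326 against 527 and 797 CPM (-1.05 ± 0.098, adjusted p = 4.54e-07), and Vegfa (-0.36) and Igf1 (-0.34) were lower too. In the stricter cells 6 genes were higher and 4 lower, and Kitl (0.27 in all cells), Vcam1 and Tnc were no longer called.

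Of 13 transcription factors of niche cells, 3 were higher and 2 lower (median 0.05). Foxc1, which maintains the reticular niche, was at 508 and 510 against 313 and 298 CPM (log2 fold change 0.74 ± 0.079, adjusted p = 2.65e-06). Ebf3, another factor of reticular cells, rose by 0.40 (442 and 474 against 341 and 354 CPM), and Tcf7l2, which acts with beta-catenin, by 0.33. Prrx2, a factor of limb mesenchyme, was at 3.25 and 3.04 against 16.1 and 20.8 CPM (-2.61), and Twist1 was lower by -0.47. All 5 kept their calls in the stricter cells. The adipocyte list had 5 of 21 genes higher and 3 lower (median -0.06). Pparg, the adipogenic factor, rose by 0.56 (105.5 and 80.03 against 63.7 and 59.2 CPM), Esm1, which encodes endocan, by 0.49 and Gas6 by 0.32, whereas Cebpb (-0.50), Scd1 (-0.66) and Fabp4 (-0.78) fell. In the stricter cells Agt and Gdpd2 were no longer called.

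**Figure D3:**
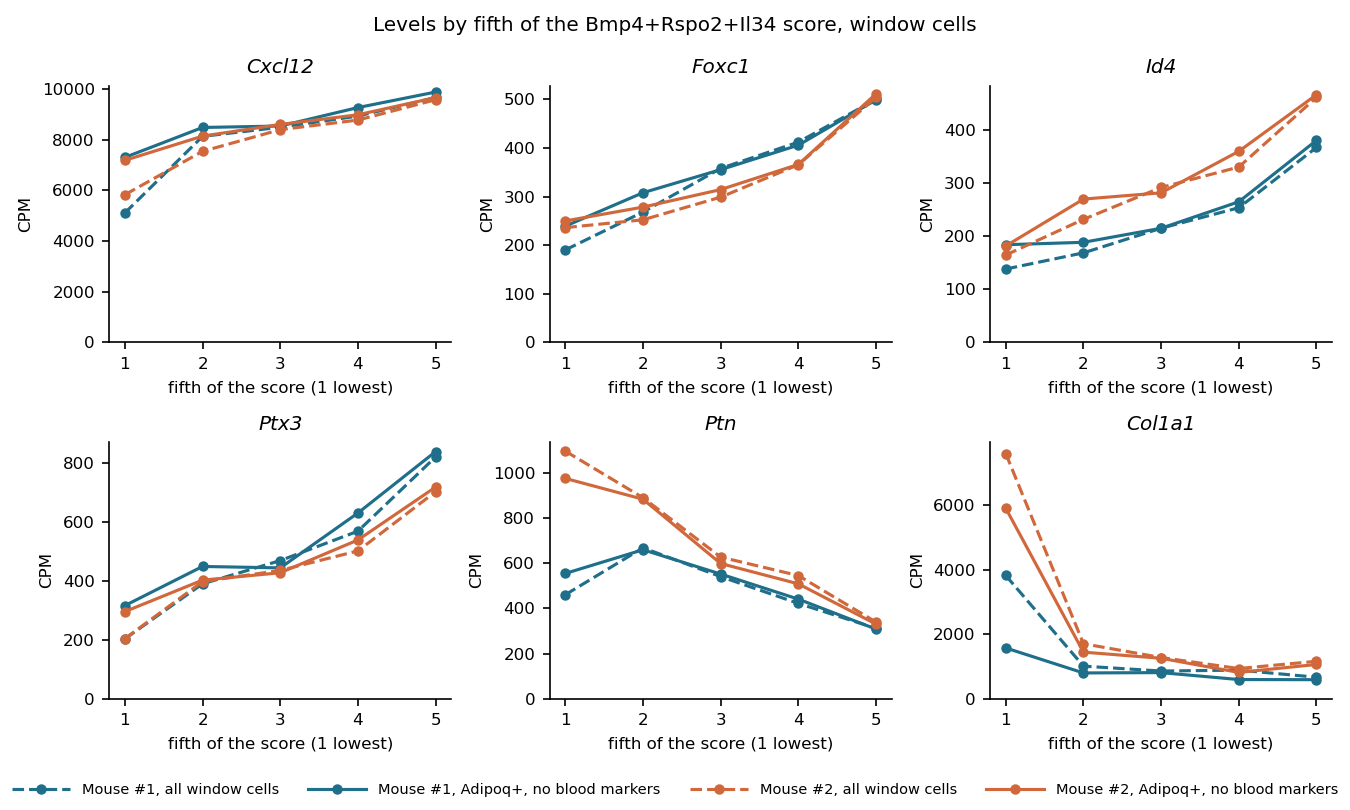
CPM (y axis, linear from 0) of 6 genes across 5 equal bins of the score (x axis) in window cells of each mouse, dashed for all cells and solid for the stricter cells. Foxc1 rises from 190 and 236 in the lowest bin to 499.9 and 504 in the highest, and Ptn is lowest in the highest bin in both mice.

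Over 5 equal bins of the score, Foxc1 went from 190 and 236 CPM in the lowest to 499.9 and 504 in the highest, with every step upward in both mice. Id4 went likewise from 138 and 164 to 367 and 461 CPM, Ptx3 from 203 and 204 to 821 and 703 CPM, and Cxcl12 from 5111 and 5829 to 9668 and 9579. The largest step of Cxcl12 lay between the lowest 2 bins, up to 8132 and 7542 CPM. In the stricter cells Cxcl12 went from 7302 and 7186 to 9882 and 9663. Ptn in Mouse #1 was at 461 CPM in the lowest bin, 669 in the second and 312 in the highest. In Mouse #2 it went from 1098 in the lowest to 339. Col1a1 dropped from 3821 to 1007 CPM and from 7606 to 1703 between the lowest 2 bins and ended at 663 and 1158 in the highest. In the stricter cells the lowest bin held less Col1a1, with a drop from 1571 to 796 and from 5908 to 1442 CPM. These are levels along the score that chose the cells, and no test was run on them.

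More bone and matrix genes were lower than higher in members. Of 21 osteoblast genes, 10 were lower and 1 higher (median -0.45), with 12 and 2 in the stricter cells. DESeq2 called 4 of them, all lower, and edgeR without the block called 0, with 5 at an unadjusted p under 0.05. Col1a1, the main bone collagen, was at 653 and 1127 against 1650.2 and 2818 CPM (log2 fold change -1.33 ± 0.059, adjusted p = 1.07e-11), Ibsp at 704 and 1077 against 912 and 1547 (-0.45) and Phex at 62.2 and 79.5 against 112 and 123 (-0.71). Bglap, which encodes osteocalcin, had a log2 fold change of -2.31, but its comparison level was 15.3 CPM in Mouse #1 and 163 in Mouse #2. The 1 higher gene was the collagenase Mmp13 (0.32), at 798 and 723 against 517 and 711 CPM, where the difference lay mostly in Mouse #1. Bglap2 turned direction without Mouse #2, with a log2 ratio of 0.66 in Mouse #1.

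Of 20 other collagens, 11 were lower and 1 higher (median -0.28). Col3a1 was at 597 and 668 against 1578 and 1643 CPM (log2 fold change -1.35 ± 0.065, adjusted p = 3.07e-11) and Col6a3 at 108 and 198 against 294 and 408 (-1.22). Col14a1 and Col15a1, collagens of fibrous tissue, were at or under 1.62 CPM in members against 35.5 and 21.8 and against 10.6 and 13.6 CPM. Col8a1 was the higher one (0.46). Among 10 small leucine-rich proteoglycans other than Prelp, 5 were lower and 2 higher (median -0.25). Aspn (-3.28) and Lum (-2.96) fell most, Lum from 235 and 234 CPM in comparison cells to 45.5 and 20.7 in members, and Dcn fell by 1.46 on the log2 scale. In the stricter cells Aspn was at -2.37 and Dcn at -0.65. Fmod (1.31) and Podnl1 (0.53) were higher. Prelp was higher in members as well, but it is a marker picked with these data known and was not tested.

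**Figure D4:**
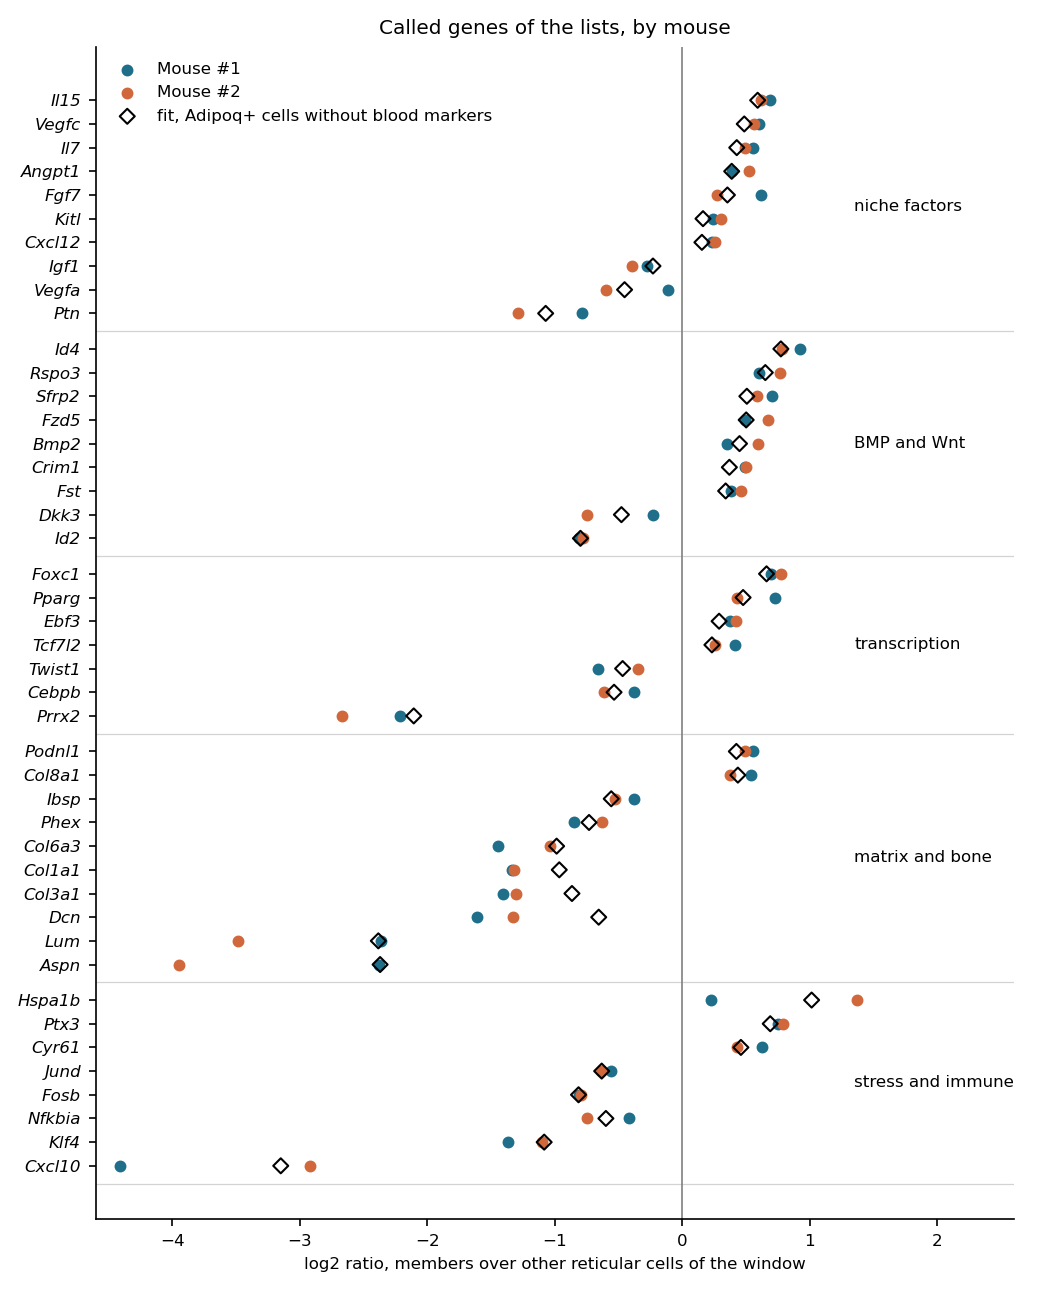
Log2 ratio of members over comparison cells (x axis) for called genes of the lists (y axis), with filled points for each mouse and open diamonds for the fit in the stricter cells. Genes such as Id4, Foxc1 and Rspo3 lie right of 0 in both mice, and Lum, Aspn and Cxcl10 lie farthest left.

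Immediate early genes outside the window's own 3 were mostly lower in members. Of 20, 15 were lower and 1 higher (median -0.46). Fosb was at 818 and 704 against 1428 and 1222 CPM (log2 fold change -0.80 ± 0.064, adjusted p = 6.47e-08), Jund fell by 0.60 and Klf4 by 1.22. The higher gene was the matricellular Cyr61 (0.53). Of the 3 genes that set the window, Fos stood at 887 and 824 CPM in members against 567 and 513 in comparison cells, Jun at 1410 and 1390 against 1371 and 1152, and Egr1 at 485 and 452 against 535 and 411. The heat shock list had 3 of 13 genes higher and 1 lower (median 0.10), led by Hspa1b at 114 and 338 against 97.3 and 130 CPM (0.90), where the difference lay mostly in Mouse #2.

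Of 17 inflammatory mediators, 8 were lower and 2 higher (median -0.30). Cxcl10, an interferon-induced chemokine, was at 3.25 and 16.0 against 74.4 and 123 CPM (log2 fold change -3.21 ± 0.17, adjusted p = 1.3e-10). Cxcl1 (-0.74), Gbp2 (-0.79), Icam1 (-0.86) and the NF-kappa B inhibitor Nfkbia (-0.58) were lower with it. Ptx3, a secreted pattern recognition protein, was higher, at 738 and 698 against 437 and 404 CPM (0.77 ± 0.074, adjusted p = 6.16e-07). Isg15 was the other higher one (0.33). The same 8 lower and 2 higher counts were found in the stricter cells.

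Cell cycle genes were lower in 14 of 15 cases (median -2.80), and in 13 in the stricter cells. Mki67 was at 4.33 and 1.66 against 20.4 and 17.7 CPM (log2 fold change -2.85 ± 0.31, adjusted p = 2.77e-06), and Top2a at 0 and 3.31 against 34.5 and 27.8. At 4000 UMIs, 5.51% and 2.47% of members had at least 2 UMIs of the list, against 10.6% and 6.09% of comparison cells (27.4% and 23.9% against 34.2% and 24.0% unthinned). The 95% Wilson intervals, 2.70 to 10.9% and 1.14 to 5.28% against 8.38 to 13.3% and 4.83 to 7.65%, overlapped in both mice. Of 9 hematopoietic markers, 7 were lower (median -3.60), and none was called in the stricter cells by edgeR or DESeq2, with 1 at an unadjusted edgeR p under 0.05. The stricter cells were chosen by leaving out cells with blood markers, so the loss of these calls was built in.

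Markers of periosteal or fibroblast cells were lower in 5 of 5 tested cases (median -3.46), led by Cd34 (-4.49) and with Gsn at 74.1 and 111 against 321 and 428 CPM. Their 7 genes summed to 82.3 and 115 CPM in members and 361 and 461 in comparison cells, and to 79.2 and 115 against 125 and 247 in the stricter cells, where 1 of 2 tested genes was lower and Gsn was at -0.97. In members 1 and 3 of the 7 genes had no UMI. The part of such cells in the lower collagens was not tested. Skeletal stem cell markers had 5 of 13 lower and none higher (median -0.23), with Ly6a at 2.71 and 1.93 against 48.8 and 57.9 CPM (-4.63) and Cd44 at -0.89, and 2 of 10 lower in the stricter cells, where Ly6a was at -3.18. Of 15 solute carriers and acid-base genes other than Slc26a7, 4 were lower and none higher (median -0.36). These were Slc1a3 (-1.43), Slc2a1 (-0.48), Car3 (-1.01) and Car2 (-2.56). DESeq2 and edgeR without the block each called 0 of the 15. Car2 turned to 0.30 in the stricter cells, where it was not called, and in Mouse #1 alone Car2 was at 1.55 and Car3 at 0.16. None of 3 endothelial and 4 chondrocyte markers was called by edgeR or DESeq2 (medians -0.36 and -0.12), with 1 and 2 at an unadjusted edgeR p under 0.05. S100b was the 1 tested Schwann marker (-0.47), and of 6 mural markers Rgs4 (0.63) and Tagln (0.45) were higher and none lower (median -0.29). Without the window Tagln was at -0.0268 and not called.

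Outside the lists, the genes highest in members among those at 20 CPM or more began with Gpr50, an orphan receptor of the melatonin receptor family, at 28.1 and 31.5 against 10.6 and 12.7 CPM (log2 fold change 1.34 ± 0.16, adjusted p = 1.21e-05). Crygs (1.20), Serpina12, which encodes the adipokine vaspin (1.12), Ehd3 (1.09), Gm26825 (1.08), Palmd (1.04), D8Ertd82e (1.04), Gadd45g (0.99), Rasl11a (0.98) and Armt1 (0.97) followed, and all 10 kept their calls in the stricter cells. Of the 10 lowest, 8 were Camp, Pglyrp1, Chil3, Ngp, Ltf, Lcn2, Wfdc21 and Prtn3, genes of granulocytes, and none of the 8 was called in the stricter cells. The other 2 were the imprinted transcript H19, at 0 and 2.48 against 111 and 112 CPM (-4.41 in the stricter cells), and Mgp, a calcification inhibitor, at 8.66 and 13.8 against 330 and 206 CPM (-3.02 in the stricter cells).

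Reticular cells outside the window were not members, although their scores and immediate early levels entered the percentiles that set the thresholds. There, 171 and 317 cells at or above the score threshold were compared with 593 and 1113 others, and 199 of 11827 genes were higher (1.68%) and 538 lower (4.55%), 6.23% in all. Without the block, 6 genes were called in all, 0 of them higher, with 1336 at an unadjusted p under 0.05. Among the 11566 genes tested both inside and outside, 127 were higher in both, 31.4% of the list inside and 65.5% of the list outside, and 434 were lower in both, 48.4% and 84.8%. Opposite calls were found for 4 genes. Foxc1 was 0.74 inside and 0.65 outside on the log2 scale, Id4 0.85 and 0.71, Rspo3 0.69 and 0.53, Ptx3 0.77 and 0.76, Il7 0.52 and 0.55, Ptn -1.05 and -0.67 and Col1a1 -1.33 and -0.95. All 7 passed the test in both sets of cells.

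Some lists behaved otherwise outside the window. Immediate early genes had 2 higher and 4 lower of 20 (median 0.14) and heat shock genes 8 higher and none lower of 13 (median 0.52). Osteoblast genes had 3 lower of 21 and collagens 7 of 20. In 1 fit over both sets, a term for the difference was called for 1 of 12263 genes (0.00815%), Cxcl10, whose log2 fold changes were -3.21 inside and -0.79 outside, so a difference between inside and outside was not detected for the immediate early or heat shock genes singly.

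Against the preosteoblast-class cells, 344 and 793 in number, members had more of the niche factors and less of the osteoblast genes. The rule split these 2 classes by reticular against osteoblast genes, so a contrast of this kind was built in. It was not particular to members either: in Mouse #1, comparison cells had 999 CPM of Kitl and 380 of Grem1. Preosteoblast-class cells there had 165 and 107, all as UMIs over the class total. Of 11615 genes, 1919 were higher (16.5%) and 2024 lower (17.4%), 33.9% in all. Niche factors were higher in 16 of 17 cases and lower in 1 (median 2.26): Kitl, the stem cell factor, was at 1205 and 1361 against 164 and 146 CPM (log2 fold change 3.05 ± 0.14, adjusted p = 3.14e-11), and Tnc was the lower one (-1.03). Esm1 was at 1285 and 1435 against 38.2 and 40.8 CPM (5.10), and Lepr, the leptin receptor, at 875 and 1129 against 195 and 221 (2.26). Osteoblast genes were lower in 21 of 23 cases (median -2.34), with Bglap at 9.77 and 28.2 against 3243 and 6070 CPM.

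The signals themselves also parted from those of preosteoblast-class cells. Of 11 BMP ligands and relatives, 3 were higher and 6 lower (median -1.61), with Bmp2 (0.80) and Bmp6 (2.02) higher and Gdf10 (-1.61) lower. Antagonists were higher in 6 of 12 cases and lower in 3 (median 0.85), with Fst at 533 and 468 against 42.2 and 42.9 CPM (3.55) and Grem1 at 438 and 593 against 106 and 104 (2.28). Outside the lists, Cbln1, which encodes a secreted cerebellin, was highest at 163 and 91.8 against 1.23 and 1.63 CPM (6.23 ± 0.22), followed by Cbln2 (5.68), Igfbp3 (4.24), Pdzrn4 (4.16) and Angptl1 (4.14). Pdgfc, a platelet-derived growth factor, and Cemip, which degrades hyaluronan, had no UMI in any member, where a count of 0 allows up to 1.66 and 0.845 CPM. They were at 25.3 and 27.9 CPM and at 20.5 and 27.9 CPM in preosteoblast-class cells. Fat3 (-8.20), Cgref1 (-7.53) and Cthrc1 (-7.29) were the next lowest. This comparison and the one within reticular cells share the members, so the 2 sets of values stand side by side only.

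The reporters gave a readout of the recombinase after tamoxifen. The tdTomato feature includes a WPRE element that a recombinase feature of the same reference also holds, so its counts are uncertain. Of 3 reporter features, iCreER was higher in members, at 17.3 and 27.3 against 10.7 and 11.97 CPM (log2 fold change 1.03 ± 0.18, adjusted p = 0.000846), whereas tdTomato was lower, at 613 and 845 against 889 and 1173 CPM (-0.50 ± 0.067, adjusted p = 3.8e-05). eGFP was close, at 12576 and 12236 against 11326 and 11290.4 CPM (0.13 ± 0.032), and was not called in the stricter cells. iCreER was called neither by DESeq2 nor by edgeR without the block (adjusted p = 0.104), and members of Mouse #1 held 32 UMIs of it. tdTomato was called in the stricter cells (-0.61) but not without the block (adjusted p = 0.278), nor where the score was taken from cells thinned to 1 depth (-0.13, adjusted p = 0.189). Outside the window its log2 fold change was -0.10 (adjusted p = 0.75).

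tdTomato-positive cells, above the 99th percentile of hematopoietic cells, were 36.3% and 43.5% of members (95% Wilson intervals 28.7 to 44.7% and 37.6 to 49.7%) and 42.4% and 49.7% of comparison cells (38.6 to 46.3% and 46.9 to 52.6%). The share was lower in members of both mice, and the intervals overlapped in both. Among cells above the window the order differed between mice: 42.5% of high-score against 35.9% of other cells in Mouse #1 and 45.2% against 49.6% in Mouse #2. Preosteoblast-class cells were positive in 1.16% and 4.79% of cases and hematopoietic cells in 1.01% and 1.05%. Inside the window the iCreER transcript was thus higher and tdTomato lower in members, and each lost its call in some of the other fits.

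**Figure D5:**
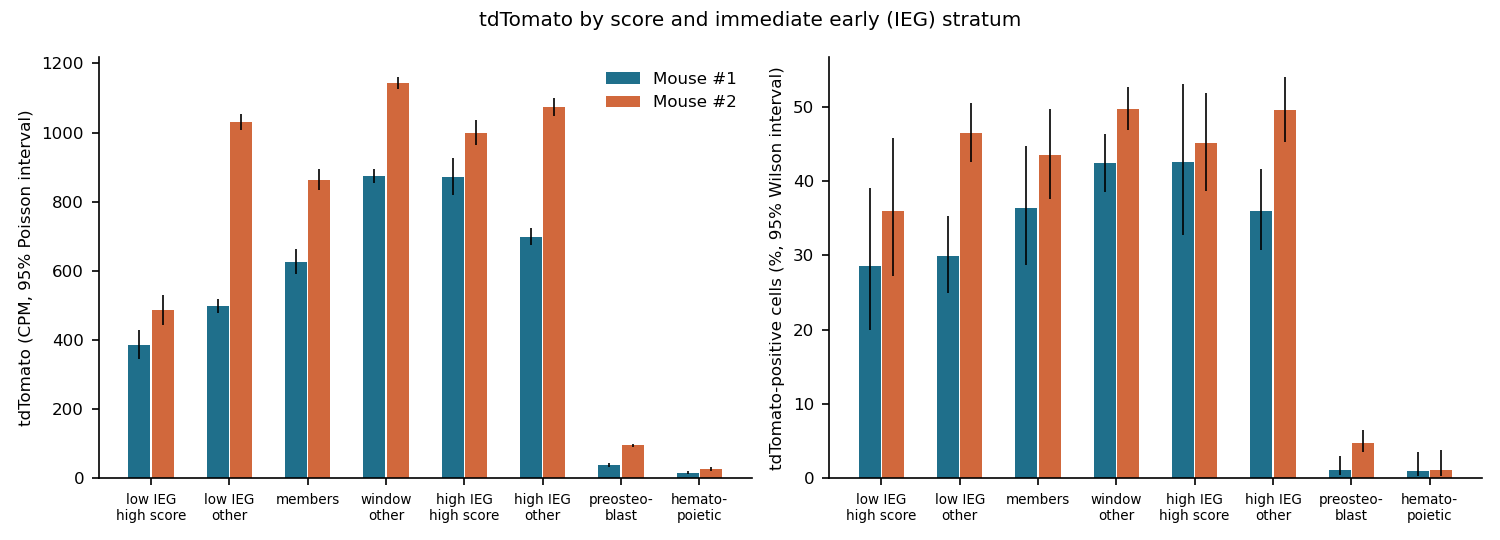
Level of tdTomato in CPM with 95% Poisson intervals and share of tdTomato-positive cells in percent with 95% Wilson intervals (y axes, linear from 0), by score and immediate early stratum (x axis) and mouse. Members lie below comparison cells in both mice and both measures, at 36.3% and 43.5% against 42.4% and 49.7%.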

How the data were processed

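The authors deposited raw UMI counts per feature and barcode for every barcode of 2 libraries, without a filter for cells. Per the file headers they were made with Cell Ranger 3.0.0; the submitters' processing notes also name Seurat and mm10. The annotation release is not given in the sources used here. Reporter features that share sequence, such as WPRE, are uncertain.

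Counts were summed per mouse and class and tested with the quasi-likelihood test of edgeR 4.0.16 (R 4.3.3), TMM scaling, filterByExpr and Benjamini-Hochberg adjustment over all genes tested. Tests ran on the 2 mice as replicates, with the mouse as a block (1 residual degree of freedom). The pairing comes from the animals: both classes of a pair were cells of 1 mouse. Checked across genes, same-mouse deviations correlated at 0.320 (comparison cells) and 0.183 (preosteoblast class). CPM beside a fold change carry the TMM scaling; other CPM are UMIs over the class total, on the same scale. DESeq2 1.42.0 was an alternative. The fit was tested on simulated data. A planned test of each score gene in cells chosen on the other two is given as a description, since the genes were grouped with these data known.

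Doublets were kept: Scrublet (scanpy 1.11.5) marked 6 and 3 cells (0.218% and 0.0655%), so it had not worked. Members and the 28 gene lists were chosen with earlier results of these data known. Genes named were the 6 markers, up to 4 called genes of largest change per list with genes central to it, and outside the lists the 10 highest and 10 lowest called genes (5 against preosteoblast-class cells) with at least 20 CPM in 1 class of both mice and the same direction in both mice.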

Additional observations from a re-analysis of the deposited data

Results flagged for a closer look

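Cxcl10, which encodes an interferon-induced chemokine, differed between cells inside and outside the immediate early window. Its log2 fold change of high-score over other reticular cells was -3.21 inside, where levels were 3.25 and 16.0 against 74.4 and 123 TMM-scaled CPM, and -0.79 outside, where they were 37.7 and 48.2 against 46.0 and 100.6. The difference of the 2 log2 fold changes was -2.43 in 1 edgeR fit over both sets (adjusted p = 0.0317), the single call among 12263 genes (0.00815%). In Adipoq-positive cells without blood markers it was -2.13 (adjusted p = 0.00118). All 4 mouse-wise comparisons had the lower level in the high-score cells.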

How the results depend on the processing

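Without the replicate block, the genes called inside the window went from 1334 to 131 and those outside from 737 to 6, against preosteoblast-class cells from 3943 to 3020. DESeq2 called 276 inside the window and 1614 against preosteoblast-class cells. All 131 and all 276 were among the 1334, in the same direction. In Adipoq-positive cells without blood markers, the 1144 genes called inside the window went to 12 without the block and to 139 with DESeq2. The tdTomato log2 fold change of -0.50 was no longer called without the block (-0.50, adjusted p = 0.278) or with the score from thinned cells (-0.13, adjusted p = 0.189), and was -0.54 to -0.47 with 1 mouse left out. Bmp4 in cells chosen on Rspo2 and Il34, described without a test, was 0.83 without the block. With 1 mouse left out it was 0.60 to 1.05, Rspo2 was 1.04 to 1.17 and Il34 -0.25 to 0.36, changing sign without Mouse #2. Counts of calls have no value with 1 mouse left out, since no residual degree of freedom remains.

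Of 112 named genes, 65 lost their call without the block, 50 with DESeq2, 20 of 102 with the thinned score and 17 of 104 in Adipoq-positive cells without blood markers. Direction turned for Fabp4 at the 90th percentile (0.0050), for Hspe1 with the thinned score (-0.0044), and without the window for Egr2 (0.14), Dnajb1 (0.36) and Tagln (-0.0268). With 1 mouse left out, Bglap2 ranged from -2.19 to 0.66, Col11a2 from -2.19 to 0.13, Car2 from -3.69 to 1.55 and Car3 from -1.32 to 0.16, positive without Mouse #2. Without cells with blood markers, and then also without those lacking Adipoq, it turned for Car2 (0.39 and 0.30), Ngp (0.0671 and 0.0498) and Wfdc21 (0.75 and 0.79). RLE scaling and no filter on low counts changed no call among the 112. The cause of these changes was not tested. With 2 mice, p-values rest on the spread between 2 animals, and genes under a few CPM are limited by depth.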
